A study of Mus musculus with 28 samples.

Results

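The proximal tubule takes up protein that passes the glomerular filter through a receptor complex on its apical membrane, and 10 genes of that route were followed here across 4 groups of mouse kidneys. They are the receptors Lrp2 (megalin) and Cubn (cubilin), the cubilin partner Amn (amnionless), the clathrin adaptor Dab2, the megalin chaperone Lrpap1, the endosomal chloride-proton exchanger Clcn5, the albumin and IgG salvage receptor Fcgrt, and the lysosomal proteases Lgmn, Ctsb and Ctsl. The members were chosen by symbol among the 14845 genes of the deposited table, and all 10 were found there.

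Megalin is a giant receptor of the lipoprotein-receptor family, and cubilin, which has no membrane-spanning segment, depends on amnionless to reach the surface. Together they bind albumin, vitamin carrier proteins and many other filtered ligands, which are carried by clathrin-coated vesicles into acidified endosomes, where the receptors are recycled and the cargo goes on to lysosomes. Loss of this uptake gives proteinuria, as in inherited defects of megalin, cubilin, amnionless or the exchanger Clcn5.

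RNA of whole kidneys from male mice was sequenced in 28 libraries. The db/db mouse lacks a functional leptin receptor and becomes obese and diabetic, and removal of 1 kidney (uninephrectomy, Unx) adds to the load on the other. Intact db/m controls were taken at an age of 26 weeks (n = 5) or 35 weeks (n = 6), and diseased db/db Unx mice also at 26 weeks (n = 12) or 35 weeks (n = 5). Every db/db mouse had the surgery and every db/m mouse was intact, so that genotype and surgery cannot be told apart, and their joint contrast is called the disease comparison.

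The labels do not say that each library is 1 animal, and p-values measure the spread between libraries. They name no batch either, and an unnamed batch and age cannot be told apart. The estimated depth of a library was between 21.8 and 30.8 M counts (M, mega). On the second principal component, which held 9.17% of the variance, db/db Unx replicates 3, 5 and 6 of 35 weeks stood apart at 42.8, 26.7 and 20.1, with every other library below 10, and results at 35 weeks are therefore given with and without them where they matter. All 15 markers of the whole proximal tubule and all 7 of its first segment were detected in all 4 groups. In whole tissue, fewer cells of a type and less RNA per cell cannot be told apart. Values are the deposited, scaled read signal, and a log2 change is the difference in log2(value + 1) with its standard error, called at an adjusted p below 0.05 (limma, Benjamini-Hochberg over 13495 genes).

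Promoters of 9 members were in the RefSeq promoter table (GRCm38.p6), with 12 transcription starts among them, and Ctsb was not matched. The window held 250 bases before and 50 after the start. It was searched on both strands for GTCACGTG, the E-box of the lysosomal gene network read by TFEB, for its core CACGTG, which every GTCACGTG contains, and for GTTAAT, the core of HNF1 sites. GTCACGTG lay at 2 of the 12 starts, in Amn at position -28 and in the second start of Lgmn at position -51, against 2.25% of 32851 promoters. CACGTG was present at 3 starts, the same pair and Ctsl at -236, against 7.15% of promoters, and GTTAAT at 1, the second start of Dab2 at -65, against 7.10%. The receptors Lrp2 and Cubn and the chaperone Lrpap1, which all fell in the disease comparison, hold none of these motifs. Neither do Clcn5, which was not called at either age, and Fcgrt. The 100 bases before the start are printed 5′ to 3′ for Lrp2, Cubn, Lrpap1 and the starts with GTCACGTG, which is in capitals. They lie at chr2:69586030-69586129 (minus strand) for Lrp2, chr2:13491877-13491976 (minus) for Cubn, chr5:35105700-35105799 (minus) for Lrpap1, chr12:111270996-111271095 (plus) for Amn and chr12:102439093-102439192 (minus) for the second start of Lgmn. A match describes the letters only and was not tested as a binding site.
Lrp2: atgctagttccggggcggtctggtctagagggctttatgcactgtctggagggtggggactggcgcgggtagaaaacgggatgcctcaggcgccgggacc
Cubn: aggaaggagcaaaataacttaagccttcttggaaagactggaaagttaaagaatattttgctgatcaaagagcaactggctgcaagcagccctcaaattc
Lrpap1: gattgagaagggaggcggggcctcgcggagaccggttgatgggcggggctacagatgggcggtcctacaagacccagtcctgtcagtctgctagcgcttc
Amn: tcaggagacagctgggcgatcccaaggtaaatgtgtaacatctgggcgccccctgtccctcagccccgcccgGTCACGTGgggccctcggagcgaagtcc
Lgmn: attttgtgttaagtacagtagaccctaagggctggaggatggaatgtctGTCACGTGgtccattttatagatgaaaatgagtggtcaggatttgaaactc

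In diseased kidneys the transcripts of the receptors Lrp2 and Cubn and of the chaperone Lrpap1 were lower at both ages, and those of the proteases Lgmn and Ctsb were higher, Lgmn at 35 weeks not without the 3 libraries that stood apart. Cubn at 26 weeks was not called after quantile normalization. The salvage receptor Fcgrt was called lower only at 26 weeks, and not after quantile normalization. The adaptor Dab2 was called lower only at 35 weeks, and not in 13 of 22 alternatives, among them the fit without the 3 libraries. With the deposited scaling the protease Ctsl was called higher only at 35 weeks. The anchor Amn and the exchanger Clcn5 did not pass the test at either age. At 26 weeks 6 of the 10 members were called, 4 lower (Lrp2, Cubn, Lrpap1 and Fcgrt) and 2 higher (Lgmn and Ctsb). Across all genes 34.9% were called in this comparison, 17.7% lower and 17.2% higher. At 35 weeks 7 were called, 4 lower (Lrp2, Cubn, Dab2 and Lrpap1) and 3 higher (Lgmn, Ctsb and Ctsl), against 32.3% of all genes, 16.4% lower and 15.9% higher. The median log2 change of the 10 members was -0.033 at 26 weeks and -0.12 at 35 weeks, beside 0.020 and 0.012 over all genes tested. Groups did not overlap at 26 weeks for 4 members, Lrp2, Lrpap1, Fcgrt and Ctsb, where 12.8% of all genes had groups without overlap. At 35 weeks this held for 5 members, Lrp2, Cubn, Lrpap1, Ctsb and Ctsl, against 18.1% of all genes. After quantile normalization the split at 26 weeks was 2 lower and 5 higher in place of 4 and 2.

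**Figure D1:**
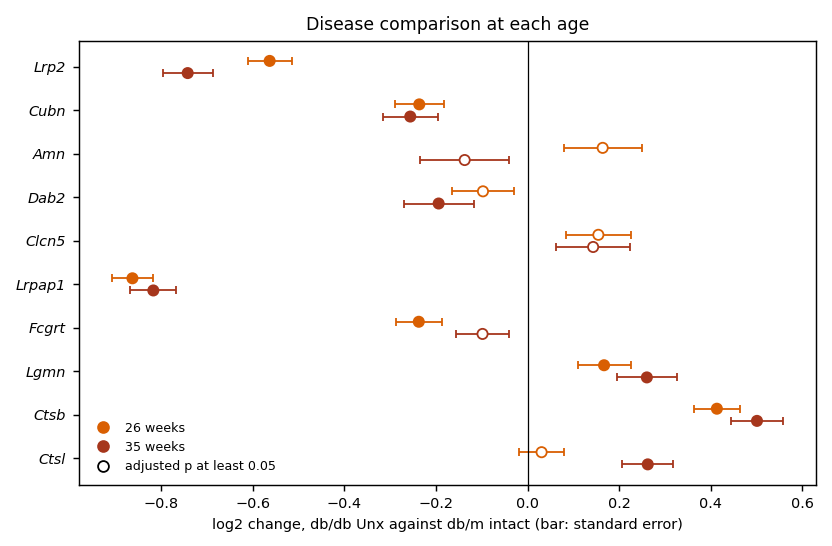
Log2 change of each of the 10 genes in db/db Unx against db/m intact kidneys at 26 weeks (orange) and 35 weeks (red), with the standard error as a bar and an open circle where the adjusted p was at least 0.05. Lrp2 and Lrpap1 lie farthest to the left at both ages, and Ctsb lies farthest to the right.

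Lrp2 (ENSMUSG00000027070, GRCm38 chromosome 2, 69424340 to 69586065, minus strand) encodes megalin, the receptor that internalizes both its own ligands and the cubilin complex. At 26 weeks its values in the 5 db/m libraries were 1088, 1046, 1101, 959.6 and 1044.5, and in the 12 db/db Unx libraries they ran from 624 to 767 with a median of 710.45. Every diseased library lay below every control. The mean went from 1048 ± 55.2 (SD, n = 5) to 709 ± 39.7 (SD, n = 12), and so fell by 32.3%, a log2 change of -0.56 ± 0.048 (adjusted p 5.25e-12). In the 35-week kidneys the 6 db/m libraries ran from 1046 to 1170.4 with a median of 1123, and the 5 db/db Unx libraries, replicates 1, 2, 3, 5 and 6, read 774, 677, 677, 604 and 614. The groups were again apart, and the change was -0.74 ± 0.055 (adjusted p 1.81e-13). Without replicates 3, 5 and 6 it was -0.62 (adjusted p 1.06e-08). After quantile normalization the change at 26 weeks was -0.37 (adjusted p 3.89e-08) and that at 35 weeks -0.55 (adjusted p 1.03e-10).

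Cubn (ENSMUSG00000026726, chromosome 2, 13276338 to 13491813, minus strand) encodes cubilin, the peripheral membrane receptor for albumin, transferrin and the intrinsic factor-vitamin B12 complex. In the 26-week kidneys the db/m libraries read 253, 265, 259.6, 222 and 260.2, and the db/db Unx libraries ran from 182 to 244 with a median of 211. Of the 12 diseased libraries, 10 lay below the lowest control, which was replicate 4. The log2 change was -0.24 ± 0.053 (adjusted p 0.000508). After quantile normalization it was -0.087 (adjusted p 0.196), which ended the call. Among the older mice the 6 db/m libraries ran from 234 to 287 with a median of 243, and the db/db Unx libraries read 217, 199, 219.8, 207 and 199.5, with no overlap. The change was -0.26 ± 0.060 (adjusted p 0.000996) with all libraries and -0.26 (adjusted p 0.0261) without replicates 3, 5 and 6. After quantile normalization it was -0.15 (adjusted p 0.0388). An uncharacterized gene on the other strand, Gm13270, shares exon bases with Cubn, and the labels do not say whether counting used the strand.

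**Figure D2:**
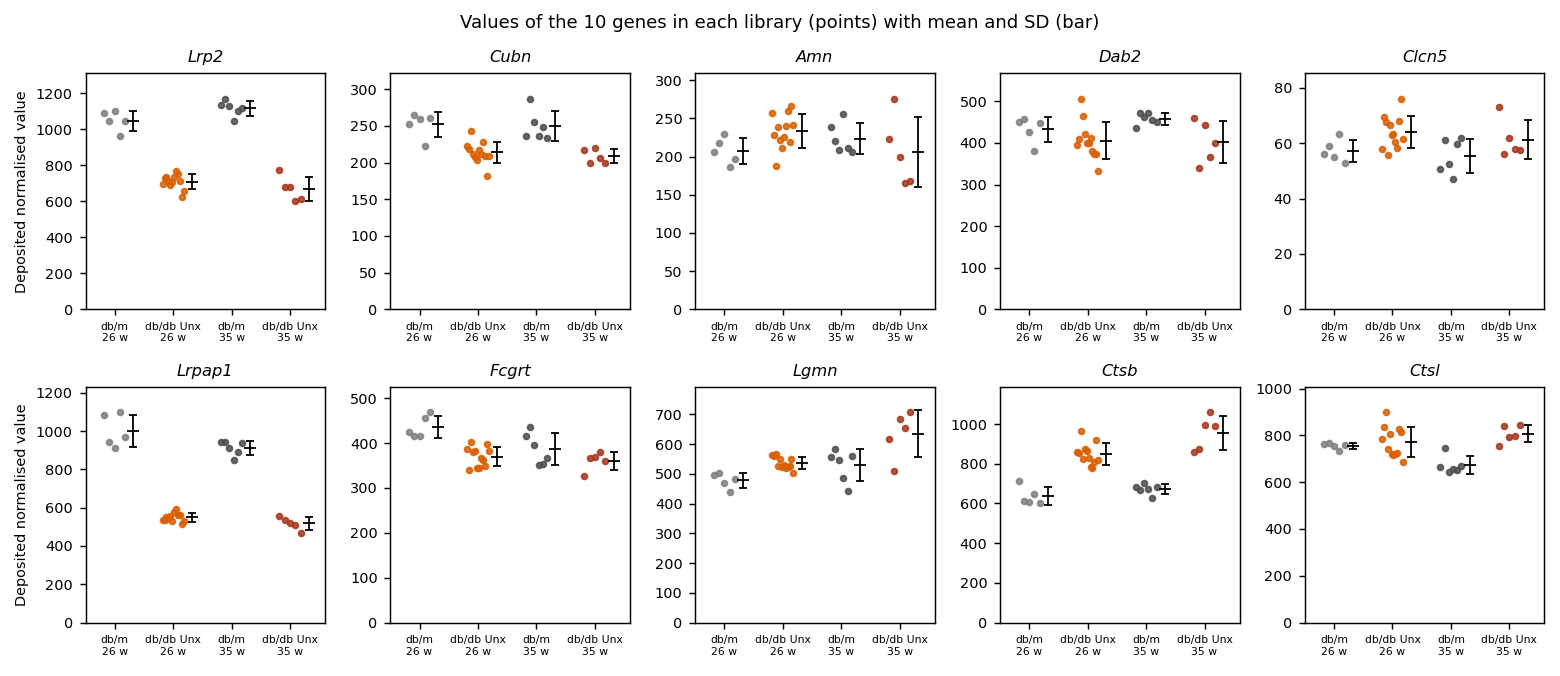
Deposited normalised value (vertical axis, from 0) of each of the 10 genes in every library (points), with the group mean and SD beside the points. In Lrp2 and Lrpap1 the diseased libraries of both ages lie below all controls, and in Ctsb they lie above them.

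Amn (ENSMUSG00000021278, chromosome 12, 111271095 to 111276426, plus strand) encodes amnionless, the transmembrane protein that carries cubilin to the apical surface. Among the younger mice the db/m libraries read 206, 218, 229.8, 187 and 197, and the db/db Unx libraries ran from 187 to 266 with a median of 233. The ranges overlapped, and the log2 change of 0.16 ± 0.086 was not called (adjusted p 0.141). In the quantile-normalized fit it was 0.29 (adjusted p 0.0102), and with only the groups of the comparison in the fit its adjusted p was 0.0465. At 35 weeks the db/m libraries ran from 206 to 256 with a median of 216, and db/db Unx replicates 1, 2, 3, 5 and 6 read 223, 276, 199.6, 165 and 168. The 3 libraries that stood apart were the lowest of the 5, all below the lowest control, and replicate 2 was the highest of all. The change of -0.14 ± 0.097 was not called (adjusted p 0.307). Without replicate 2 it was -0.25 (adjusted p 0.0235), and without replicates 3, 5 and 6 the sign turned, to 0.15 (adjusted p 0.347).

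Lrpap1 (ENSMUSG00000029103, chromosome 5, 35091501 to 35105766, minus strand) encodes the receptor-associated protein, which binds megalin in the endoplasmic reticulum and keeps ligands off it until it reaches the surface. Its estimated change was the largest of the 10 members at both ages, except that after quantile normalization Ctsb's at 35 weeks, 0.70 (adjusted p 9.83e-12), was larger. At 26 weeks the db/m libraries read 1083, 945, 912, 1101 and 969, and the db/db Unx libraries ran from 517 to 593 with a median of 548. The lowest control was well above the highest diseased library. The mean went from 1002 ± 84.8 (SD, n = 5) to 549 ± 21.7 (SD, n = 12), and fell by 45.2%, with a log2 change of -0.86 ± 0.044 (adjusted p 9.58e-18). In the 35-week kidneys the db/m libraries ran from 849.9 to 942 with a median of 925, and the db/db Unx libraries read 557, 538, 519, 508 and 467. The change was -0.82 ± 0.050 (adjusted p 1.97e-15), and -0.74 (adjusted p 1.83e-10) without replicates 3, 5 and 6. The quantile-normalized changes were -0.69 (adjusted p 1.39e-16) and -0.64 (adjusted p 3.47e-14).

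Dab2 (ENSMUSG00000022150, chromosome 15, 6299788 to 6440712, plus strand) encodes the adaptor that links the megalin tail to clathrin. In the 26-week kidneys the db/m libraries read 451, 457, 425, 382 and 448, and the db/db Unx libraries ran from 331 to 507 with a median of 399. The diseased range enclosed the control range, and the log2 change of -0.097 ± 0.067 was not called (adjusted p 0.276). Among the older mice the db/m libraries ran from 437 to 472 with a median of 458, and the db/db Unx libraries read 460.4, 339, 443.5, 367 and 401. The groups overlapped, with 3 of 5 diseased libraries below all controls. The change of -0.19 ± 0.076 passed the test narrowly (adjusted p 0.0482) and did not pass it in 13 of 22 alternatives, among them the omission of db/m replicate 2, 3, 4, 5 or 6 or of db/db Unx replicate 2, 5 or 6 (adjusted p 0.0614 to 0.191). After quantile normalization it was -0.056 (adjusted p 0.617), and without db/db Unx replicates 3, 5 and 6 it was -0.21 (adjusted p 0.178). Gm18888, on the other strand, shares exon bases with Dab2 and was not analysed here.

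Clcn5 (ENSMUSG00000004317, chromosome X, 7153810 to 7319358, minus strand) encodes the exchanger that supports acidification of proximal tubule endosomes and is mutated in Dent disease. Among the younger mice the db/m libraries read 56.3, 59.1, 55.1, 63.3 and 52.7, and the db/db Unx libraries ran from 55.7 to 76.2 with a median of 63.0. At 35 weeks the db/m libraries ran from 47.1 to 61.8 with a median of 56.0, and the db/db Unx libraries read 73.2, 56.1, 61.8, 57.8 and 57.7. The ranges overlapped at both ages. The log2 changes of 0.15 ± 0.072 (adjusted p 0.0919) and 0.14 ± 0.081 (adjusted p 0.188) were not called, although that at 26 weeks was called after quantile normalization (0.19, adjusted p 0.0375).

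Fcgrt (ENSMUSG00000003420, chromosome 7, 45092990 to 45103851, minus strand) encodes the heavy chain of the neonatal Fc receptor, which returns albumin and IgG from acidic endosomes instead of letting them be degraded. At 26 weeks the db/m libraries read 424, 417, 415.5, 456 and 469.8, and the db/db Unx libraries ran from 339 to 403 with a median of 373. The groups did not overlap, and the log2 change was -0.24 ± 0.051 (adjusted p 0.000285). The call ended after quantile normalization (-0.065, adjusted p 0.311). In the 35-week kidneys the db/m libraries ran from 352 to 436 with a median of 382, and the db/db Unx libraries read 327, 366, 368, 379.7 and 361. Here 1 of 5 diseased libraries lay below all controls, and the change of -0.098 ± 0.058 was not called (adjusted p 0.205). The difference between the ages was not called either, at 0.14 ± 0.077 (adjusted p 0.462).

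Lgmn (ENSMUSG00000021190, chromosome 12, 102394084 to 102439813, minus strand) encodes legumain, the asparaginyl endopeptidase of the proximal tubule lysosome, which also processes cathepsins. In the 26-week kidneys the db/m libraries read 496, 504, 468, 439 and 483, and the db/db Unx libraries ran from 501 to 568.1 with a median of 528. Of the 12 diseased libraries, 11 lay above the highest control. The log2 change of 0.17 ± 0.058 was called (adjusted p 0.0225), but not without db/m replicate 3 (adjusted p 0.0505) or replicate 4 (adjusted p 0.0948). It was 0.34 (adjusted p 1.31e-05) after quantile normalization. Among the older mice the db/m libraries ran from 442 to 584 with a median of 552, and the db/db Unx libraries read 618, 509, 685, 656 and 709. The 3 libraries that stood apart were the highest. The change was 0.26 ± 0.066 (adjusted p 0.00205) with them and 0.090 (adjusted p 0.511) without them. The quantile-normalized fit gave 0.42 (adjusted p 4.27e-06).

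Ctsb (ENSMUSG00000021939, chromosome 14, 63122462 to 63145923, plus strand) encodes cathepsin B, an abundant lysosomal cysteine protease. Among the younger mice the db/m libraries read 714, 612, 606, 649 and 605, and the db/db Unx libraries ran from 781 to 966 with a median of 839. All 12 diseased libraries lay above all controls. The mean went from 637 ± 46.8 (SD, n = 5) to 849 ± 54.02 (SD, n = 12), a gain of 33.2%, with a log2 change of 0.41 ± 0.050 (adjusted p 1.58e-08). At 35 weeks the db/m libraries ran from 629 to 701 with a median of 677, and the db/db Unx libraries read 859.8, 873, 995, 1061.5 and 990.5. The groups were apart again, with the 3 libraries that stood apart the highest. The change was 0.50 ± 0.057 (adjusted p 4.97e-09) with them and 0.36 (adjusted p 0.000183) without them. Quantile normalization gave 0.60 (adjusted p 1.77e-11) at 26 weeks and 0.70 (adjusted p 9.83e-12) at 35 weeks. Fdft1, a sterol synthesis gene on the other strand, shares exon bases with Ctsb, and its change was not called at 26 weeks (0.14, adjusted p 0.263) or 35 weeks (0.22, adjusted p 0.115).

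Ctsl (ENSMUSG00000021477, chromosome 13, 64359337 to 64370890, minus strand) encodes cathepsin L, a second lysosomal cysteine protease. At 26 weeks the db/m libraries read 762, 768, 753, 731 and 758, and the db/db Unx libraries ran from 685 to 900.5 with a median of 763. The diseased libraries spread on both sides of the controls, 5 below and 6 above all of them, and the log2 change of 0.031 ± 0.049 was not called (adjusted p 0.672). After quantile normalization it was 0.22 (adjusted p 0.000267). In the 35-week kidneys the db/m libraries ran from 645 to 748 with a median of 659.8, and the db/db Unx libraries read 756, 839.7, 792, 797 and 845. All 5 lay above all controls, and the change was 0.26 ± 0.056 (adjusted p 0.000307), or 0.25 (adjusted p 0.021) without replicates 3, 5 and 6. After quantile normalization it was 0.44 (adjusted p 1.29e-08). The disease effect at 35 weeks minus that at 26 weeks was 0.23 ± 0.074 (adjusted p 0.132), so that a difference between the ages was not called. The db/m mean was 755 ± 14.1 at 26 weeks and 672 ± 37.98 at 35 weeks. Gm47123 and Gm49230 share exon bases with Ctsl and were not analysed here.

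Per kilobase of exon, a different member had the highest mean in control and in diseased kidneys at 26 weeks, while Lgmn had it in both at 35 weeks. In controls the range of the leading member overlapped that of the next at both ages. Exon length was the union of the annotated exons of all transcripts of a gene, and the order holds for this length only. It was 6489 bases for Ctsl, 6051 for Ctsb and 2323 for Lgmn, and an order by the length of the expressed transcript was not computed. In db/m kidneys at 26 weeks Lrpap1 led at 243 ± 20.6 per kilobase, followed by Fcgrt at 208 ± 11.8 and Lgmn at 206 ± 11.1. The range of Fcgrt overlapped both that of Lrpap1 and that of Lgmn. Ctsl at 116, Amn at 113 and Ctsb at 105 formed the next overlapping set, then came Lrp2 at 62.7 and Dab2 at 58.9, Cubn at 16.9 and Clcn5 at 5.00. In db/db Unx kidneys at 26 weeks Lgmn led at 231 ± 9.05 per kilobase, with Fcgrt at 176 ± 10.4 second, and these did not overlap. Ctsb at 140.3, Lrpap1 at 133, Amn at 126 and Ctsl at 119 followed with overlapping ranges. Lrp2, at 42.5, stood below Dab2, at 55.2, with overlapping ranges, and Cubn at 14.3 and Clcn5 at 5.59 closed the order. In db/m kidneys at 35 weeks Lgmn, at 228 ± 23.3 per kilobase, and Lrpap1, at 222 ± 8.91, overlapped. In db/db Unx kidneys of that age Lgmn stood at 273 ± 33.8 and Lrpap1 at 126 ± 8.22. The levels of the receptors were below those of the chaperone and the proteases on this scale in every group, and Clcn5 was the lowest of the 10.

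Ratios of members within 1 library do not change when all values of the library are scaled by 1 factor, and are given as a description. Lrp2 to Cubn, the ratio of the receptors, averaged 4.16 ± 0.172 in controls and 3.32 ± 0.165 in db/db Unx kidneys at 26 weeks. At 35 weeks it averaged 4.49 ± 0.271 in controls and 3.21 ± 0.264 in db/db Unx kidneys. The ranges did not overlap at 26 weeks, at 3.94 to 4.31 in controls and 3.01 to 3.63 in db/db Unx, nor at 35 weeks, at 4.07 to 4.79 and 2.92 to 3.56, so that megalin transcripts were lower relative to cubilin transcripts in every diseased library. Lrp2 to Dab2 averaged 2.43 in controls and 1.76 in db/db Unx kidneys at 26 weeks and 2.44 and 1.68 at 35 weeks, also without overlap. The ratio of Lrp2 to Lrpap1, receptor to chaperone, went the other way at 26 weeks, from 1.05 ± 0.125 in db/m to 1.29 ± 0.0479 in db/db Unx, and the means at 35 weeks were 1.22 and 1.29 with overlapping ranges. Cubn to Amn, the 2 parts of the cubilin complex, averaged 1.22 in controls and 0.929 in db/db Unx kidneys at 26 weeks, and 1.13 and 1.05 at 35 weeks, with overlapping ranges at both ages. Ctsb to Lrp2 averaged 0.609 and 1.20 at 26 weeks and 0.604 and 1.45 at 35 weeks, and every diseased library was above 1 while every control was below 0.7.

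**Figure D3:**
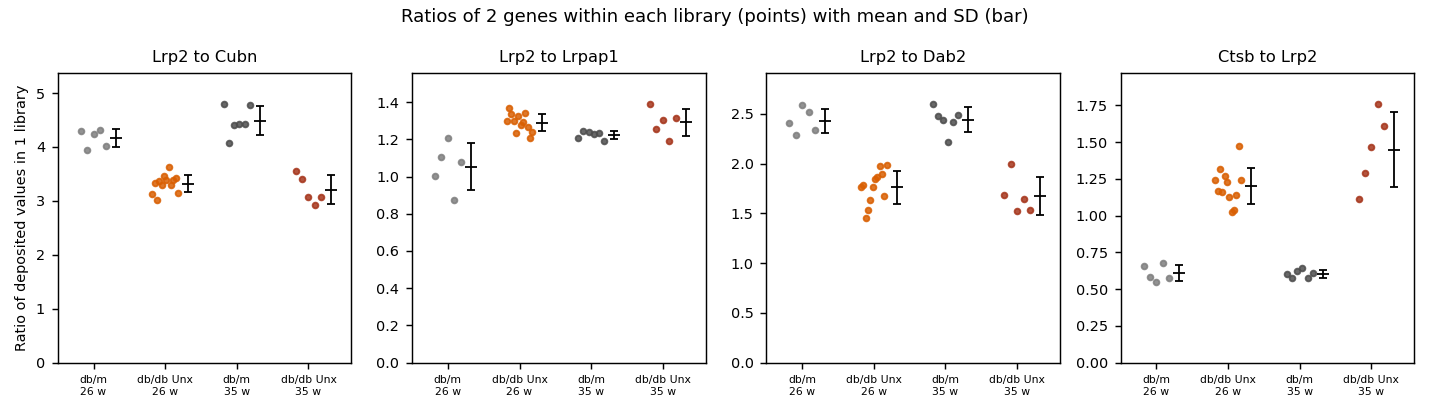
Ratio of the deposited values of a pair of genes in each library (points, vertical axis from 0), with group mean and SD. Lrp2 to Cubn and Lrp2 to Dab2 are lower in all db/db Unx libraries than in any db/m library of the same age, and Ctsb to Lrp2 is higher.

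Between 26 and 35 weeks the members differed less than in the disease comparison. The age comparisons use the same libraries as the disease comparisons, so that they are not independent of them. In db/db Unx kidneys 2 of 10 members were called, both higher at 35 weeks, against 11.3% of all genes. Lgmn averaged 536 ± 21.03 at 26 weeks and 635 ± 78.6 at 35 weeks, a log2 change of 0.24 ± 0.058 (adjusted p 0.0073). Ctsb averaged 849 and 956 ± 86.6, a change of 0.17 ± 0.050 (adjusted p 0.0225). Without the 3 libraries that stood apart, replicates 3, 5 and 6, the changes were 0.064 (adjusted p 0.911) and 0.032 (adjusted p 0.958), and 8 genes of the whole table were called in place of 1526. Leaving out replicate 6 alone gave 0.19 for Lgmn (adjusted p 0.0536) and 0.16 for Ctsb (adjusted p 0.081), neither called. Without replicate 3 Ctsb was at 0.15 (adjusted p 0.0758), and without replicate 5 at 0.13 (adjusted p 0.141). Lrp2 changed by -0.087 ± 0.048 (adjusted p 0.257), Cubn by -0.035 ± 0.053 (adjusted p 0.737) and Lrpap1 by -0.086 ± 0.044 (adjusted p 0.216), none of them called. Without db/db Unx replicate 1 of 35 weeks Lrp2 was called, at -0.14 (adjusted p 0.0446), and without replicate 2 Amn was called, at -0.31 (adjusted p 0.00621).

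In db/m kidneys limma called 0 of 10 members between the ages, where 7.4% of all genes were called, and 4 members (Lrpap1, Fcgrt, Lgmn and Ctsl) had an unadjusted p below 0.05. The lowest adjusted p was that of Fcgrt, with a log2 change of -0.18 (adjusted p 0.0536), and Ctsl followed at -0.17 (adjusted p 0.0587). Omitting db/m replicate 2 of 35 weeks led to calls for both (adjusted p 0.0179 and 0.0235), omitting replicate 1 of 35 weeks to that of Fcgrt (adjusted p 0.0318), and omitting replicate 3 of 26 weeks to that of Lrpap1 (-0.16, adjusted p 0.0489). The difference between the disease effects of the ages was called for 0 of 10 members by limma, against 0.548% of all genes, with an unadjusted p below 0.05 for Lrp2, Amn and Ctsl. Amn had the largest such difference, -0.30 ± 0.13 (adjusted p 0.313), and was called without db/db Unx replicate 2 of 35 weeks (-0.41, adjusted p 0.0421).

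Across libraries, after the mean of each group was subtracted, Lrp2 and Cubn moved together, as did Lgmn and Ctsb. Over the 28 libraries Pearson's r of the log2 values was 0.62 for Lrp2 with Cubn, 0.54 for Cubn with Dab2, 0.48 for Lrp2 with Dab2 and 0.46 for Lrp2 with Lrpap1. Lgmn and Ctsb had an r of 0.55. Amn went against the proteases, with -0.54 for Ctsb and -0.46 for Lgmn, and its r with Cubn, its partner in the complex, was -0.14. Lrp2 and Ctsb had an r of -0.45. Of the 45 pairs, 28 were above 0 and 3 above 0.5, with a median of 0.086. These values share library depth and scaling. Over the 25 libraries without the 3 that stood apart, r was 0.71 for Lrp2 with Cubn and 0.54 for both with Dab2, so that these 3 still moved together. It was 0.31 for Lrp2 with Lrpap1 and 0.40 for Lgmn with Ctsb. Amn had -0.29 with Ctsb and -0.20 with Lgmn, Lrp2 had -0.23 with Ctsb, and 27 pairs were above 0 with a median of 0.12.

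**Figure D4:**
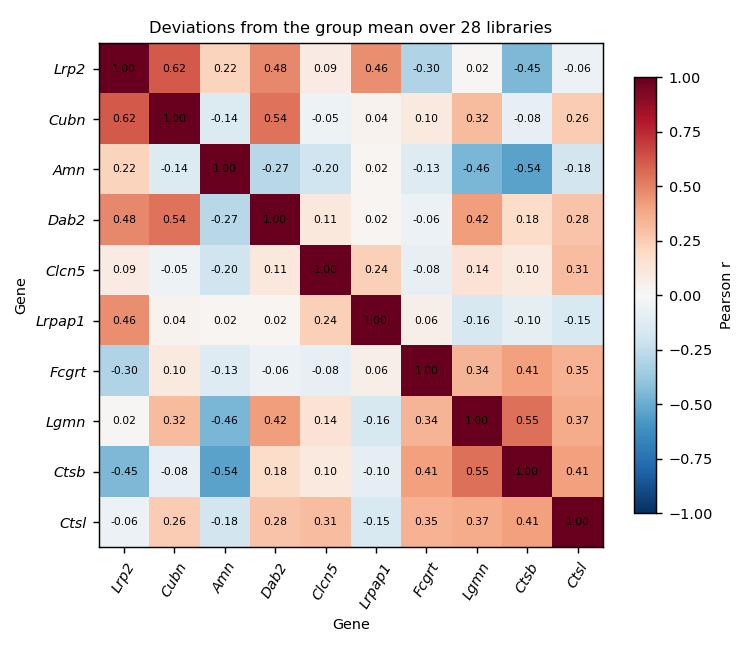
Pearson r of each pair of the 10 genes over 28 libraries after the group mean of the log2 value was subtracted (color scale from -1 to 1, value in each cell). The block of Lrp2, Cubn and Dab2 lies between 0.48 and 0.62, and the lowest value, -0.54, is that of Amn with Ctsb.

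The genes outside the set with the most similar pattern were ranked by the same r over 28 libraries among 13485 genes, whose median r was near 0. For Lrp2 they were Hmgn2 (r 0.75), Psme4 (0.74), Stxbp5l (0.72), Lmo4 (0.72) and Pter (0.72). For Cubn they were Enox2 (0.67), Flvcr2 (0.66), Fmo2 (0.65), Akr1e1 (0.64) and Gm4450 (0.64). For Ctsb the most similar was Ctsd (0.83), the gene of cathepsin D, followed by Cyb5r1 (0.70), Zfp36 (0.69), Enpp5 (0.68) and Prr5l (0.68). Without the 3 libraries that stood apart, r for Lrp2 was 0.64 with Hmgn2 and 0.73 with both Psme4 and Pter. For Cubn it ran from 0.64 (Gm4450) to 0.71 (Flvcr2). For Ctsb it was 0.76 with Ctsd, 0.77 with Prr5l and 0.58 with Cyb5r1, and all genes were not ranked again. Hmgn2, a nucleosome-binding protein, was lower in disease like Lrp2, at -0.48 (adjusted p 1.91e-07) and -0.57 (adjusted p 9.33e-08). Psme4, Stxbp5l, Lmo4 and Pter were not called at 26 weeks (adjusted p 0.116 to 0.400) and were lower at 35 weeks (adjusted p 0.000932 to 0.0350). Among the genes most similar to Cubn, Akr1e1 was called lower at both ages, Fmo2 and Gm4450 only at 35 weeks, and Enox2 and Flvcr2 at neither. Ctsd was higher like Ctsb, at 0.39 (adjusted p 6.61e-07) at 26 weeks and 0.58 (adjusted p 3.43e-09) at 35 weeks, while Cyb5r1 was lower, at -0.32 (adjusted p 0.0104) and -0.42 (adjusted p 0.00394). Enpp5 was higher, at 0.26 (adjusted p 0.00119) and 0.33 (adjusted p 0.000372), and Zfp36 and Prr5l were not called at either age.

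Most other genes of endocytic traffic were not called, and those called went in both directions. Of 30 tested genes of clathrin coats, early and recycling endosomes and receptor scaffolds, 2 were higher and 5 lower at 26 weeks, and the counts at 35 weeks were the same. After quantile normalization the counts were 5 and 3 at 26 weeks and 4 and 4 at 35 weeks. Without the 3 libraries that stood apart they were 1 and 5 at 35 weeks. The summed level at 26 weeks ran from 3520.9 to 3737.2 in db/m and from 3248.5 to 3475.6 in db/db Unx kidneys. At 35 weeks it ran from 3515.7 to 3627.6 and from 3231.2 to 3449.5. Slc9a3r1, the apical PDZ scaffold NHERF1, went from 476 ± 14.3 to 307 ± 34.2 at 26 weeks, a log2 change of -0.64 ± 0.065 (adjusted p 4.61e-10), and changed by -0.48 at 35 weeks (adjusted p 3.19e-06). Snx27, a sorting nexin that returns cargo from endosomes to the surface, changed by -0.66 (adjusted p 1.54e-08) and -0.44 (adjusted p 0.000178). Gipc1, which binds the megalin tail, rose from 55.01 ± 5.07 to 72 ± 5.07 at 26 weeks, by 0.38 ± 0.071 (adjusted p 4.24e-05), and by 0.40 at 35 weeks (adjusted p 0.000159).

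Of 23 tested genes of endosome and lysosome acidification, 6 were higher and 6 lower at 26 weeks, and 4 higher and 3 lower at 35 weeks. After quantile normalization these counts were 11 and 3 and then 7 and 3, and without the 3 libraries that stood apart 4 and 0 at 35 weeks. Atp6v0a4, a proton pump subunit of intercalated cells and proximal tubule, rose from 107 ± 8.55 to 183 ± 31.03 at 26 weeks, by 0.76 ± 0.10 on the log2 scale (adjusted p 5.66e-07), and by 0.56 at 35 weeks (adjusted p 0.000367). Of the exchangers related to Clcn5, Clcn3 and Clcn4 were lower, Clcn3 at -0.38 (adjusted p 4.06e-06) and -0.39 (adjusted p 2.93e-05) and Clcn4 at -0.42 (adjusted p 4.62e-06) and -0.26 (adjusted p 0.00895). Without the 3 libraries Clcn3 at 35 weeks was at -0.25 (adjusted p 0.053), and no gene of the list was called lower. Clcn6 and Clcn7, exchangers of late endosomes and lysosomes, were higher at 26 weeks, at 0.32 (adjusted p 0.0248) and 0.25 (adjusted p 0.0462), and were at 0.13 (adjusted p 0.495) and 0.22 (adjusted p 0.143) at 35 weeks.

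Of 30 tested lysosomal proteases, membrane proteins, glycosidases and regulators other than the members, 8 were higher and 7 lower at 26 weeks (11 and 4 after quantile normalization), and 16 were higher and 7 lower at 35 weeks (7 and 5 without the 3 libraries). The medians were 0.0052 and 0.16. Without the 3 libraries the median at 35 weeks was 0.15, and calls over all genes went from 4357 to 2407. Hexa, a subunit of a lysosomal glycosidase, rose from 37.01 ± 4.03 to 67.6 ± 6.66 at 26 weeks, by 0.85 ± 0.077 (adjusted p 2.25e-11), and by 0.88 at 35 weeks (adjusted p 2.54e-10). Glb1, the lysosomal beta-galactosidase, changed by -1.01 ± 0.090 at 26 weeks (adjusted p 3.83e-11). Ctsz, cathepsin Z, rose at 35 weeks from 195 ± 14.4 to 285 ± 13.7, by 0.55 ± 0.057 (adjusted p 7.45e-10).

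Among 11 tested relatives of megalin in the lipoprotein-receptor and sorting-receptor families, 3 were higher and 2 lower at 26 weeks, and 3 were higher and 3 lower at 35 weeks. After quantile normalization the counts at 26 weeks were 3 and 0, and without the 3 libraries those at 35 weeks were 1 and 1. Sorl1, an endosomal sorting receptor, rose from 84.5 ± 12.3 to 115 ± 9.33 at 26 weeks, by 0.44 ± 0.073 (adjusted p 7.29e-06), and was at 0.10 at 35 weeks (adjusted p 0.386). Lrp4 rose by 0.83 (adjusted p 0.000214), from a low level of 2.48 ± 0.876, and was at -0.011 at 35 weeks (adjusted p 0.975). Sort1 rose by 0.65 (adjusted p 0.000725) and by 0.55 (adjusted p 0.0122). At 35 weeks Lrp1, the endocytic receptor of many cell types, rose from 24.1 ± 5.74 to 43.9 ± 10.1, by 0.84 ± 0.13 (adjusted p 3.67e-06), after 0.27 at 26 weeks (adjusted p 0.0672). Lrp6 changed by -0.23 at 26 weeks (adjusted p 0.00637) and by -0.32 at 35 weeks (adjusted p 0.00105), or -0.19 (adjusted p 0.193) without the 3 libraries.

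Transcripts for proteins that megalin and cubilin take up from the filtrate were mostly higher. Of 12 tested, 8 were higher and 2 lower at 26 weeks, with a median log2 change of 1.07, and 10 were higher and 2 lower at 35 weeks, with a median of 1.28 (7 and 2 without the 3 libraries). Gc, the vitamin D binding protein, had the largest change of the list at both ages, 4.97 ± 0.16 (adjusted p 1.47e-19) and 5.03 ± 0.18 (adjusted p 3.15e-18). Mt1, a metallothionein, rose from 138 ± 11.2 to 449 ± 55.4 at 26 weeks, by 1.69 ± 0.099 (adjusted p 4.39e-14), and by 1.76 at 35 weeks (adjusted p 4.41e-13). Clu, clusterin, rose from 295 ± 30.4 to 667 ± 89.98, by 1.17 ± 0.084 (adjusted p 1.3e-12), and by 1.46 at 35 weeks (adjusted p 2.47e-13). These are transcripts in the kidney and say nothing of protein delivered by the filtrate. Clu and Lcn2 are also in the list of injured tubule markers, and Cst3 is also in the lysosomal list. Ctss is in the lysosomal and macrophage lists, Gatm in those of the whole and the early proximal tubule, and Ehd3 in those of endocytic traffic and endothelium. Each was counted in every list that holds it.

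**Figure D5:**
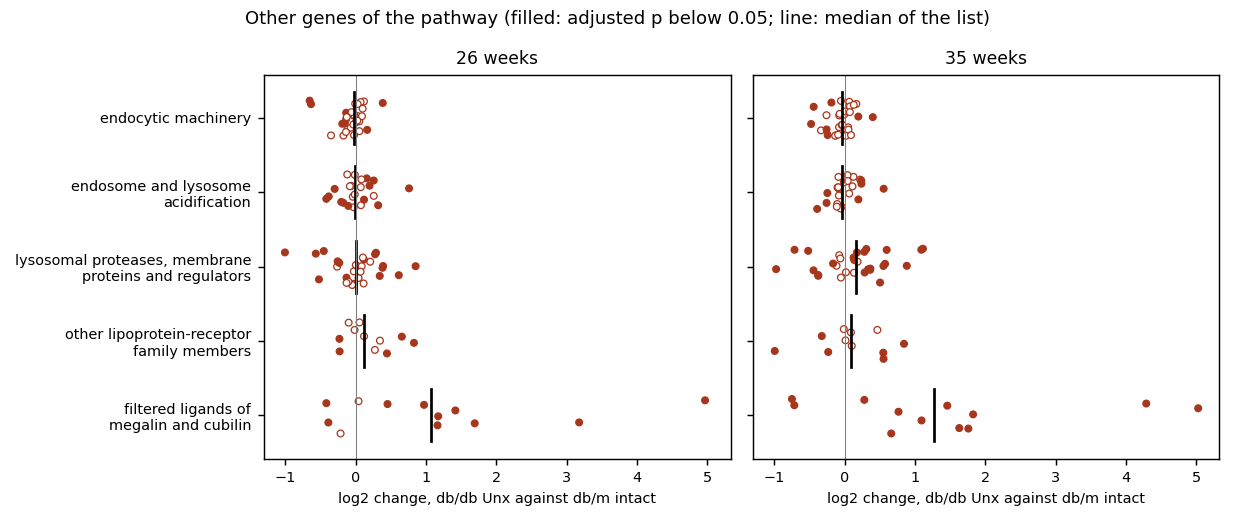
Log2 change of each tested gene (points, filled where the adjusted p was below 0.05) of 5 lists in db/db Unx against db/m intact kidneys at 26 weeks (left) and 35 weeks (right), with the list median as a vertical line. The medians of the endocytic and acidification lists lie close to 0 at both ages, and that of the filtered ligands lies above 1.

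With the deposited scaling, most markers of the whole proximal tubule were lower, as were the receptors. Of 15 markers of all its segments, 11 were lower and 3 higher at 26 weeks and 10 lower and 2 higher at 35 weeks, with medians of -0.26 and -0.46. After quantile normalization the counts were 7 and 4 at 26 weeks and 8 and 3 at 35 weeks, with medians of -0.054 and -0.16. Their summed level ran from 38862 to 44842 in db/m and from 23994 to 28356 in db/db Unx kidneys at 26 weeks, and from 36703 to 43177 and from 21194 to 24754 at 35 weeks. Cyp4b1 (-2.11, adjusted p 3.25e-21, at 26 weeks) and Slc27a2 (-0.87, adjusted p 3.44e-17) were the leading genes. The mean of Cyp4b1 alone went from 8632 to 1991 at 26 weeks. Fbp1 (0.36 and 0.26) and Slc4a4 (0.49 and 0.32) were called higher at both ages, and Gatm (0.45) at 26 weeks only. Of 8 markers of the late segment (S3), 6 were lower and 1 higher at 26 weeks and 6 lower and 2 higher at 35 weeks. Of 7 markers of the early segment (S1), where protein uptake is most active, 5 were higher and 0 lower at 26 weeks and 2 higher and 0 lower at 35 weeks. None of these markers was at 0 in any group, and their part in the changes of Lrp2, Cubn and Lrpap1 was not tested.

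Markers of injured tubule and of macrophages, a cell type rich in cathepsins, were read beside the proteases. Of 12 markers of injured tubule, 9 were higher and 0 lower at 26 weeks and 12 higher and 0 lower at 35 weeks, and Spp1 rose by 2.24 (adjusted p 1.3e-12) and 2.95 (adjusted p 1.06e-13). The summed level of the list ran from 1196 to 1342 in db/m and from 3223 to 6176 in db/db Unx kidneys at 26 weeks, and from 1158 to 1418 and from 5356 to 9551 at 35 weeks. Of 14 markers of macrophages and monocytes, 1 was higher and 2 lower at 26 weeks, with summed levels of 173 to 269 in controls and 122 to 251 in db/db Unx kidneys. At 35 weeks 7 were higher and 0 lower, with summed levels of 155 to 245 in controls and 167 to 646 in db/db Unx kidneys, and without the 3 libraries that stood apart 0 were higher. Their part in the changes of Lgmn, Ctsb and Ctsl at 35 weeks was not tested.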

How the data were processed

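Kidney RNA of 28 mouse libraries in 4 groups had been prepared with a Nextera XT kit, per the labels' protocols. The deposited table holds 1 normalised signal value per gene and library, with 0 value columns of no sample. Reads were processed with DRAGEN on GRCm38 (mm10), per the submitters' processing notes. Not given in the sources used here were its version, the annotation, the use of strand and the scaling. In each library 88.97% to 91.9% of low values (under 20 steps) lay within 0.1 of a whole multiple of 1 step, from which depth was estimated, and no count model was run. Symbols came from GENCODE M21, which matched 14834 of 14845 identifiers. Genes that reached a value of 1 in 5 or more libraries (13495, among them all 10 members) were fitted as log2(value + 1) with limma 3.58.1 in R 4.3.3, 1 mean per group, mean-variance trend and robust moderation, two-sided, with Benjamini-Hochberg adjustment. The fit was tested on simulated data.

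Genes named are the 10 members, up to 3 called genes per pathway list and up to 2 per marker list with the smallest adjusted p in a disease comparison, and the 5 genes most similar to Lrp2, Cubn and Ctsb. Lcn2, Clcn6, Clcn7, Fbp1, Slc4a4, Gatm, Cst3, Ctss and Ehd3 were named after their values were seen. Some genes that this rule names are not reported here. Members and lists were chosen with earlier results of these data known. Alternatives were the pseudocount, the low-value filter, median-of-ratios and quantile scaling, the groups in the fit, array weights, plain moderation, a replicate block, each library left out, and 3 libraries left out together. The median-of-ratios factors ran from 0.9946 to 1.0053, so that this scaling could change the values only a little. List counts under scaling and without the 3 libraries, and correlations without them, were added after the data were seen. Also tested were markers of podocytes (of 9, 4 higher and 0 lower at 26 weeks, 3 and 0 at 35), thick ascending limb (of 6, 3 and 2, then 1 and 3), distal tubule (of 6, 4 and 0 at both), collecting duct (of 8, 5 and 1, then 2 and 2), endothelium (of 8, 0 and 3, then 1 and 2), fibroblasts (of 7, 4 and 0, then 5 and 0) and lymphocytes (of 5, 0 and 3, then 0 and 1). Without the 3 libraries the counts at 35 weeks were 0 and 0 for podocytes, 1 and 2 for thick ascending limb, 4 and 0 for distal tubule, 1 and 0 for collecting duct, 0 and 2 for endothelium, 2 and 0 for fibroblasts and 0 and 1 for lymphocytes. Leaving them out took the median from 0.80 to 0.77 for fibroblasts and from 0.16 to 0.023 for podocytes, and calls over all genes from 4357 to 2407.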

Additional observations from a re-analysis of the deposited data

Results flagged for a closer look

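In 2 of 30 sets of libraries (a member in a group of 4 to 10 libraries) 1 library lay far from the others by Dixon's test, which chance does in about 1 in 20. Cubn in db/m kidneys at 26 weeks was lowest in replicate 4, at 222.4, with the next library at 253, so that the gap took 0.712 of the range against a critical value of 0.710. Ctsl in db/m kidneys at 35 weeks was highest in replicate 2, at 747.7, with the next at 667.9, a gap of 0.774 of the range against 0.625.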

How the results depend on the processing

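Of 50 member changes (10 genes in 5 comparisons), 22 kept their sign and their side of the threshold in all alternatives run, 7 lost a call and 11 gained one in at least 1, and 13 turned sign in at least 1, none of them a called change. Lrp2, Lrpap1 and Ctsb stayed called in both disease comparisons in all alternatives. Under quantile normalization Dab2 at 26 weeks was at 0.061 and Fcgrt at 35 weeks at 0.036; between ages, Dab2 was at 0.050 and Fcgrt at 0.019 in db/db Unx, and Cubn at 0.052 in db/m. Without db/db Unx replicates 3, 5 and 6 of 35 weeks Amn in the disease comparison was at 0.15, Lrp2, Amn and Clcn5 between ages at 0.031, 0.097 and 0.0074, and Clcn5, Lgmn and Ctsb in the difference of disease effects at 0.058, -0.077 and -0.049. The cause was not tested. Members called between ages in db/db Unx (2) were 1 with plain moderation, 0 with the replicate block, 0 without the 3 libraries and 0 to 3 with 1 library left out. Those in db/m (0) were 1 with the stricter filter, 2 with median-of-ratios scaling, 1 with quantile normalization, 1 with only the compared groups in the fit, and 0 to 2 with 1 library left out; those in the difference of disease effects (0) were 0 to 1. With 1 library left out, Dab2 in db/db Unx ran from -0.064 to 0.046 and Cubn in db/m from -0.059 to 0.0041 between ages, and Clcn5 from -0.076 to 0.021 and Cubn from -0.040 to 0.025 in the difference.

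Same-numbered libraries did not deviate together: over 30 pairs r ran from -0.135 to 0.084, so the numbers were not taken as pairs. With the replicate block Dab2 at 26 weeks was at 0.0062, Cubn between ages in db/m at 0.00016, and Lgmn lost its call at 26 weeks (adjusted p 0.0583). Over all genes, the 35-week disease comparison gave 4357 calls and 2407 without the 3 libraries; age in db/db Unx gave 1526, with 483 under the block, 633 without replicate 5 and 759 without replicate 6; age in db/m gave 999, with 578 without db/m replicate 5 of 26 weeks; and the difference gave 74, with 0 to 249. Depth is an estimate, and single low values rest on few reads.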
